A study of Mus musculus and Homo sapiens
Mus musculus with 14 samples.

Results

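The respiratory chain genes of the mouse retina were followed through 3 cell layers and 2 groups of amacrine cells in Light-Seq data. The members were chosen by symbol: the mitochondrially encoded subunits, the nuclear subunits of complexes I to V, and the complex I assembly factors whose symbols share the Nduf stem. Of 24460 genes listed for the layers, 103 were members after 8 symbols marked as pseudogenes by the suffix -ps had been dropped, of which 9 were encoded by mitochondrial DNA and 94 by the nucleus. Among the 94 remained Ndufa11b and Ndufb4c, which the annotation calls processed pseudogenes and which did not pass the filter on low counts. The amacrine table listed 18415 genes and 95 members, 8 mitochondrial and 87 nuclear. Light-Seq writes a DNA barcode with patterned light onto cDNA made inside a fixed tissue section, so that cells picked under the microscope can be read out together after displacement of the cDNA and sequencing.

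All retinas came from wild-type CD1 mice in the third postnatal week, with no treatment. In each of 4 sections the outer nuclear layer (ONL), the bipolar cell layer (BCL) and the ganglion cell layer (GCL) received different barcodes, which gave 12 libraries. In each of 5 further sections, amacrine cells that stained for tyrosine hydroxylase, the dopamine-making enzyme (TH+), and amacrine cells that did not (TH-) were barcoded, which gave 10 libraries. The study's methods treat sections as technical replicates and name a single source animal, so that p-values of both experiments measure the spread between sections and not between animals. The layers and the amacrine cells were separate experiments and were not tested against each other.

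The layers carried the genes that define them. The summed share of 5 rod markers was 5.02% to 6.33% of UMIs in the ONL, 1.06% to 1.84% in the BCL and 0.399% to 0.694% in the GCL. Bipolar markers took 0.6001% to 0.675% in the BCL and Müller glia markers 0.641% to 0.717% there, and ganglion cell markers 0.324% to 0.373% in the GCL, and 5 of 5 markers of each of these lists were detected in each layer. Dopaminergic markers took 0.210% to 0.435% in TH+ libraries and 0.0132% to 0.0265% in TH- libraries. Library totals ran from 310228 to 801105 UMIs in the ONL, 193869 to 208437 in the BCL, 585655 to 785013 in the GCL, 30317 to 87449 in TH+ cells and 134394 to 200344 in TH- cells. In such pooled cells, fewer mitochondria-rich cells and less of a transcript per cell cannot be told apart.

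The respiratory chain sits in the inner mitochondrial membrane. Complexes I (NADH dehydrogenase), III and IV (cytochrome c oxidase) pump protons as electrons pass to oxygen, complex II (succinate dehydrogenase) feeds electrons in without pumping, and complex V (ATP synthase) uses the proton gradient to make ATP. Complexes I, III, IV and V are built from subunits of both genomes, while every subunit of complex II is nuclear. Photoreceptors keep most of their mitochondria in the inner segments, which lie outside the layer of their nuclei.

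Some mitochondrial genes have copies in the nuclear genome. Reads with several matches were discarded by the authors, and the nuclear genome holds a near-complete copy of part of mitochondrial DNA on chromosome 1, at chr1:24650616-24655265 (GRCm39, reverse strand). This copy of 4650 bases spans positions 6394 to 11042 of mitochondrial DNA and differs from it at 1 base and by 1 base in length. It starts 1066 bases into mt-Co1 and ends 502 bases before the end of mt-Nd4. Of all 50-base windows of mitochondrial DNA, 35.70% had an exact copy elsewhere in the genome. The sequences below show the copy of mt-Co2 (subunit 2 of complex IV), the edge of the copied stretch inside mt-Co1, and the start of mt-Cytb. Shorter copies elsewhere in the genome also cover part of mt-Co1 before that edge. The first pair is mt-Co2 at chrM:7013-7072 and its copy at chr1:24654587-24654646, read on the reverse strand; capitals would mark bases that differ, and there were 0 of them in 60. In the stretch of mt-Co1 at chrM:6364-6423 (subunit 1 of complex IV), capitals mark the bases inside the copied stretch. The start of mt-Cytb at chrM:14145-14204 (the cytochrome b of complex III) lies in a gene with no copied 50-base window. All are coding sequence on the forward strand of mitochondrial DNA.
mt-Co2: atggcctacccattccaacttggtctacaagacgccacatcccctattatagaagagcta
chromosome 1 copy: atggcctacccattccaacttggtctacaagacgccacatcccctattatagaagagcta
mt-Co1: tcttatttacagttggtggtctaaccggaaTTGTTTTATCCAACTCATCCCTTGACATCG
mt-Cytb: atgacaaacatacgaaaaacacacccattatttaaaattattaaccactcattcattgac

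The genes copied in full had almost no counts. Among the 13 mitochondrial protein genes, all 50-base windows of mt-Co2, mt-Atp8, mt-Atp6, mt-Co3 and mt-Nd4l and 99% of those of mt-Nd3 had a nuclear copy. Of these 6 genes, mt-Co2 had 1 UMI and mt-Atp6 3 UMIs over the 12 layer libraries, and no retinal counts of mt-Co3, mt-Nd3, mt-Nd4l and mt-Atp8 were analysed here. In 3 wells of mouse 3T3 fibroblasts from the same study, whose tables list these 6 genes, all were at 0 UMIs among 6593 to 9984 UMIs of mitochondrial protein genes. The other 7 genes were counted in every library. Of their windows, 62.23% had a copy in mt-Nd4, 51.14% in mt-Co1, 8.29% in mt-Nd2 and 7.61% in mt-Nd5, and 0% in mt-Nd1, mt-Cytb and mt-Nd6. Whether discarded reads set these counts was not tested, and no level of mt-Co2 or mt-Atp6 is read from them.

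**Figure D1:**
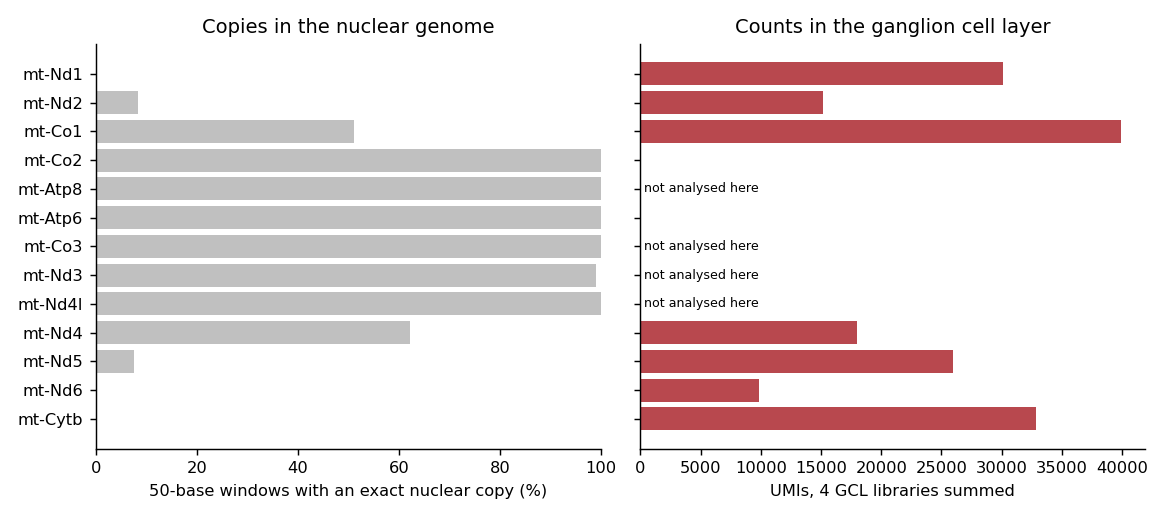
Left, percent of 50-base windows of each mitochondrial protein gene with an exact copy in the nuclear genome; right, its UMIs summed over the 4 GCL libraries. The 6 genes at 99% or 100% have 0 or 1 UMI or no count analysed here, and mt-Co1, at 51.14%, still has 39934.

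The windows without a copy also changed the order of the genes. Per 100 bases of gene, the summed GCL libraries held 3146 UMIs of mt-Nd1, 2870 of mt-Cytb, 2585 of mt-Co1 and 1303 of mt-Nd4 (a complex I subunit). Per 100 windows without a copy, the same counts gave 5463 UMIs for mt-Co1, 3576 for mt-Nd4, 3316 for mt-Nd1, 2999 for mt-Cytb, 2092 for mt-Nd6, 1672 for mt-Nd2 and 1583 for mt-Nd5. The second order rests on windows of 50 bases, somewhat longer than the mapped reads. With windows of 31 bases the copied share was 63.89% for mt-Co1, 62.98% for mt-Nd4, 7.36% for mt-Nd6 and 6.55% for mt-Cytb. mt-Nd6 is the one protein gene of the opposite strand, and the counting tool was run at default settings, which do not use strand, so that reads of either strand over it cannot be told apart. Comparisons of 1 gene between libraries use the same windows on both sides.

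Mitochondrial transcripts took the largest share of UMIs in the GCL and the smallest in the ONL. The mitochondrially encoded members made up 6.23%, 6.52%, 6.68% and 6.13% of UMIs in the GCL sections, 4.14%, 4.49%, 4.78% and 4.31% in the BCL sections and 3.61%, 2.94%, 3.04% and 2.97% in the ONL sections. The 3 layers did not overlap, and the order GCL, BCL, ONL held in 4 of 4 sections. The means were 6.39% ± 0.255 (SD, n = 4) in the GCL, 4.43% ± 0.275 in the BCL and 3.14% ± 0.316 in the ONL, so that the GCL share was 2.04 times that of the ONL and 1.44 times that of the BCL. ONL section 1 stood above the other ONL sections, and without it the ONL mean was 2.98%.

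The nuclear members differed less between layers. They took 0.404% ± 0.00848 of UMIs in the GCL, 0.375% ± 0.0244 in the BCL and 0.378% ± 0.0150 in the ONL (SD, n = 4). The GCL sections, at 0.395% to 0.413%, lay above the ONL sections, at 0.358% to 0.390%. The BCL sections, at 0.360% to 0.411%, overlapped both. The GCL was above the BCL in 4 of 4 sections, or in 3 of 4 without the assembly factors. The ONL was above the BCL in 2 of 4. These shares are of all UMIs, the mitochondrial ones included; over UMIs of nuclear genes alone the means were 0.444% in the GCL, 0.4000% in the BCL and 0.3973% in the ONL, with the same overlaps. Each nuclear UMI of the chain was accompanied by 15.8 ± 0.619 mitochondrial UMIs in the GCL, 11.8 ± 0.339 in the BCL and 8.29 ± 0.726 in the ONL, again without overlap between layers. Among the complexes of the nuclear set, complex IV differed most between GCL and ONL. Its share in the GCL was 1.41 times that in the ONL, with 4 of 4 sections higher. The GCL to ONL ratio was 1.20 for complex II, 1.08 for complex III, 1.03 for complex I and 0.964 for complex V. For the complex I assembly factors it was 1.18, and their GCL to BCL ratio was 1.41, against 1.27 for complex IV. The 16S ribosomal RNA mt-Rnr2 was 1.68 times as high a share in the GCL as in the ONL.

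**Figure D2:**
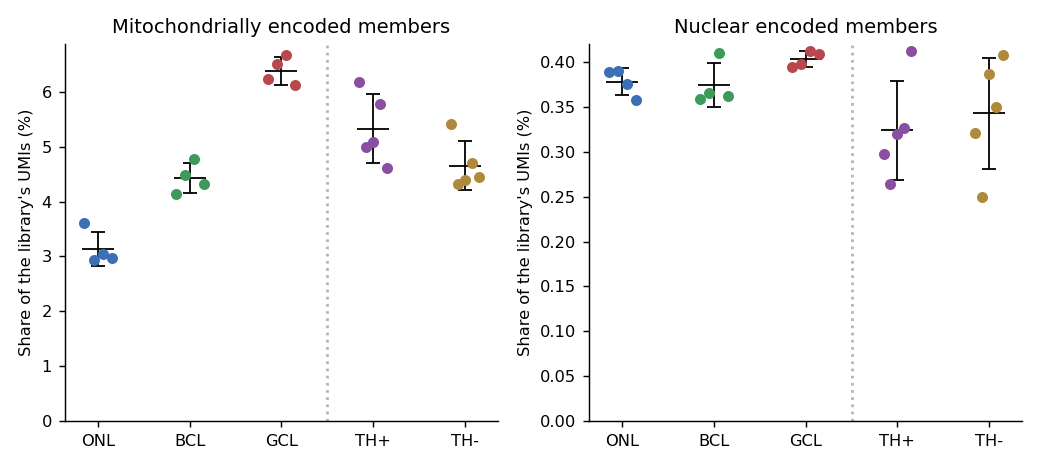
Share of each library's UMIs, in percent, held by the mitochondrially encoded members (left) and by the nuclear encoded members (right). Points are sections, bars the mean ± SD (n = 4 for layers, n = 5 for amacrine groups), and the dotted line separates the experiments; the mitochondrial shares of the 3 layers do not overlap, between 2.94% and 6.68%, while the nuclear shares lie close together.

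Gene by gene, counts were compared with edgeR's quasi-likelihood test after TMM scaling, over 11324 genes, with Benjamini-Hochberg adjustment. CPM below is UMIs per 1000000 of the scaled library. Of the members, 7 of 9 mitochondrial and 77 of 94 nuclear genes passed the filter on low counts in the layers. The 17 nuclear genes that did not pass held 1 to 29 UMIs each over the 12 libraries.

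All 7 tested mitochondrial genes were higher in the GCL than in the ONL, where 32.2% of all genes tested were called higher in the GCL. mt-Co1 stood at 7948, 6738, 6801 and 6626 CPM in the ONL sections and at 14382, 15389, 15654 and 15038 CPM in the GCL sections. The lowest GCL section was well above the highest ONL section, and the log2 fold change of ONL over GCL was -1.10 ± 0.11 (SE, adjusted p = 2.45e-13). mt-Nd1, a membrane subunit of complex I, measured 6935, 5696, 5761 and 5343 CPM in the ONL and 11108, 11507, 11921 and 10958 CPM in the GCL, a log2 fold change of -0.94 ± 0.11 (adjusted p = 5.6e-11). For mt-Cytb the 4 ONL sections lay between 6779 and 8318 CPM and the 4 GCL sections between 11515 and 13124 CPM, with a log2 fold change of -0.77 ± 0.11 (adjusted p = 1.32e-08). The smallest difference was that of mt-Nd6, at -0.56 ± 0.11 (adjusted p = 2.39e-05). The median over the 7 genes was -0.84, against 0.00 over all genes tested.

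The BCL stood between the other layers. Against the GCL, all 7 mitochondrial genes were again called, where 20.4% of all genes were called higher in the GCL. The log2 fold changes of BCL over GCL ran from -0.87 ± 0.11 for mt-Co1 (adjusted p = 1.26e-09), at 7675, 8251, 9121 and 8063 CPM in the BCL, to -0.46 ± 0.11 for mt-Nd4 (adjusted p = 0.000442), with a median of -0.63 against -0.02 over all genes. Against the ONL, 0 of 7 were called, where 18.2% of all genes were called higher in the BCL, with 1 of the 7 at an unadjusted p under 0.05. That gene, mt-Co1, was lower in the ONL in 3 of 4 sections, at a log2 fold change of ONL over BCL of -0.24 ± 0.11 (adjusted p = 0.0778).

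This comparison of ONL and BCL turned on the scaling, whose TMM factors were 0.859 to 0.939 in the ONL and 1.11 to 1.14 in the BCL. The ONL share of mitochondrial UMIs was 0.708 times the BCL share with no overlap, yet TMM scaling placed the 7 genes at a median of -0.18, all below 0. Scaled by library size alone the median was -0.51 and all 7 were called higher in the BCL, where all genes gave 25.5%, while DESeq2 called 5, where all genes gave 18.4%. Without section 1, whose ONL library had the highest mitochondrial share, 4 were called, and with the section as a block 1 was, mt-Co1 (adjusted p = 0.0311), where all genes gave 17.7% and 18.1%. Scaling by library size also moved the median of all genes from 0.09 to -0.25 for ONL over BCL, from 0.00 to -0.16 for ONL over GCL and from -0.02 to 0.15 for BCL over GCL.

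**Figure D3:**
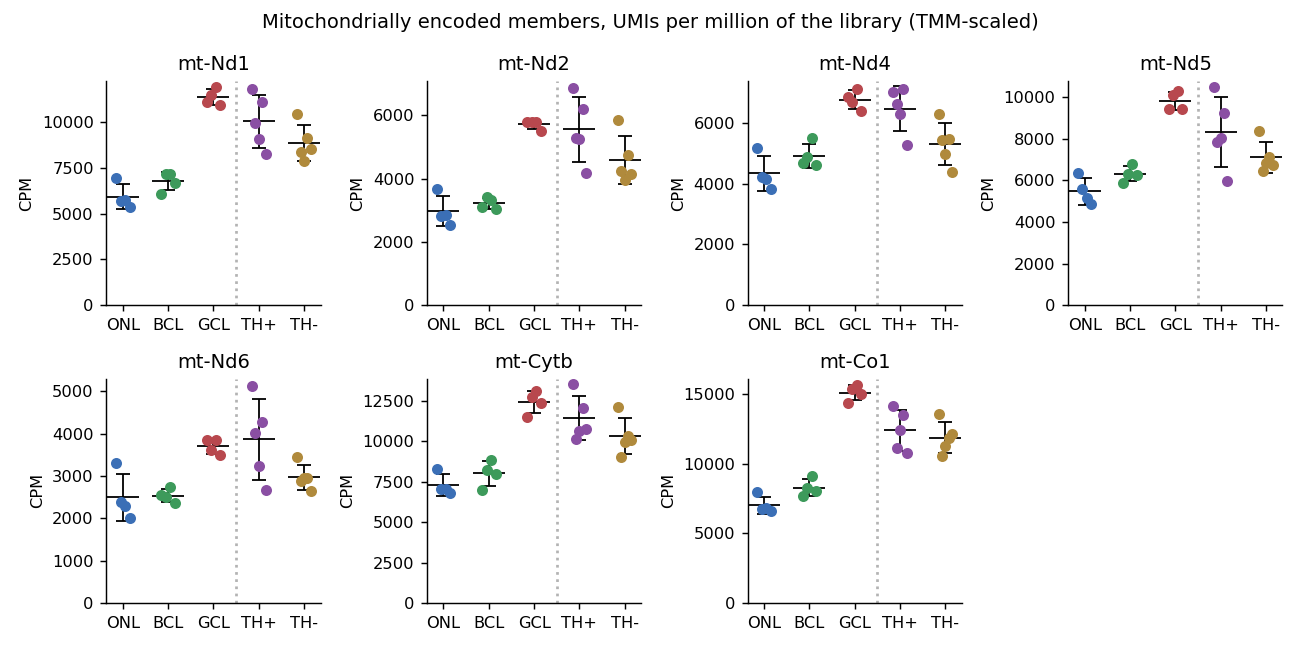
Level of each of the 7 counted mitochondrial genes in CPM by group; points are sections and bars the mean ± SD. GCL sections lie above all ONL and BCL sections in each panel, mt-Co1 reaching 14382 to 15654 CPM against 6626 to 7948 in the ONL; amacrine groups come from another experiment, marked off by the dotted line.

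The make-up of the mitochondrial transcripts also differed between layers, which scaling cannot move. mt-Co1 was 23.3% ± 0.406 of mitochondrial member UMIs in the GCL, 20.6% ± 0.297 in the BCL and 19.8% ± 0.703 in the ONL (SD, n = 4), and the GCL sections, from 22.9% to 23.8%, lay above the 8 others. mt-Nd4 was 10.4% ± 0.346 in the GCL against 12.3% ± 0.425 in the BCL and 12.2% ± 0.196 in the ONL. mt-Nd6 was 5.70% ± 0.290, 6.33% ± 0.383 and 6.96% ± 0.689 in the same order of layers, with neighbouring layers overlapping.

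Among nuclear members, ONL over BCL showed 10 genes called higher in the ONL and 1 called higher in the BCL out of 77, or 12.99% and 1.30%, where all genes tested gave 18.5% and 18.2%. Against the GCL, 10 genes were called on the ONL side and 9 on the GCL side, or 12.99% and 11.7%, where all genes gave 29.3% and 32.2%. For BCL over GCL 1 gene lay on the BCL side and 14 on the GCL side, or 1.30% and 18.2%, where all genes gave 16.1% and 20.4%. The nuclear members were thus called no more often than other genes, and in the last comparison their calls lay almost all on the GCL side. The median log2 fold changes of the 77 were 0.35, -0.05 and -0.32 for the 3 comparisons, against 0.09, 0.00 and -0.02 over all genes. The calls against the GCL include Cox6b2 on the GCL side and, for ONL over GCL, Atp5l, a complex V subunit, on the ONL side, each of which passed the filter only with counts of the layer where it was called higher; Atp5l was named after its values were seen. Without them the counts were 9 and 8 of 76 for ONL over GCL, and 13 of 76 on the GCL side for BCL over GCL.

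The split of these calls turned on the scaling too. For ONL over BCL, scaling by library size alone left 1 gene called higher in the ONL, Uqcrh, and 2 higher in the BCL, where all genes gave 10.6% and 25.5%, and the median was 0.01. The adjusted p-values of the other 9 genes ran from 0.0575 to 0.867. For ONL over GCL it gave 6 genes on the ONL side and 20 on the GCL side, where all genes gave 25.2% and 36.2%, so that the near-even split became one towards the GCL. For BCL over GCL it gave 3 and 8, where all genes gave 20.8% and 16.5%.

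**Figure D4:**
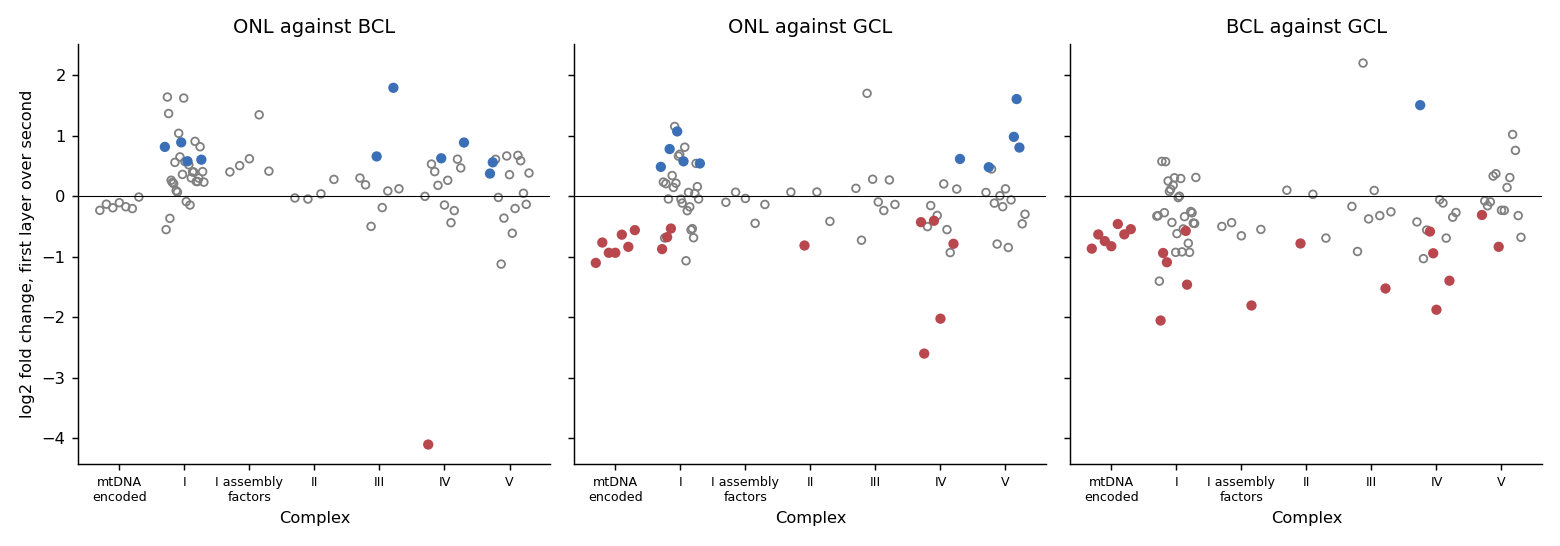
Log2 fold change of each tested member by complex for the 3 layer comparisons; filled points passed an adjusted p of 0.05 (blue higher in the first layer, red in the second) and open points did not. The 7 mitochondrial genes are all red in both comparisons with the GCL and all open in ONL against BCL, and the lowest point is Cox4i2 at -4.11.

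Complex I had 32 tested nuclear subunits. The ONL exceeded the BCL for 4 and the GCL for 5, while the GCL exceeded the ONL for 3 and the BCL for 5. These are 12.5%, 15.6%, 9.38% and 15.6% of the 32, below the 18.5%, 29.3%, 32.2% and 20.4% of all genes tested. Ndufb11, an accessory subunit of the membrane arm encoded on the X chromosome, measured 99.6, 82.9, 69.1 and 73.0 CPM in the ONL sections, 36.9, 34.8, 64.7 and 44.7 in the BCL sections and 32.2, 33.3, 43.6 and 52.8 in the GCL sections. All ONL sections lay above all others, at log2 fold changes of 1.07 ± 0.20 over the GCL (adjusted p = 4.88e-06) and 0.89 ± 0.26 over the BCL (adjusted p = 0.00414). Ndufa10, another accessory subunit, was higher in the ONL in both comparisons too, at 104 to 144 CPM against 64.7 to 80.5 in the BCL (log2 fold change 0.81 ± 0.20, adjusted p = 0.000634). With library size alone Ndufb11 kept its call over the GCL but not over the BCL (adjusted p = 0.0946), and Ndufa10 lost both (0.0575 over the BCL and 0.0534 over the GCL). Of the 7 core subunits that carry the redox centres, Ndufv1 was higher in the ONL than in the BCL (0.60 ± 0.21, adjusted p = 0.0211), and Ndufs3 was lower in the BCL than in the GCL (-1.46 ± 0.51, adjusted p = 0.0184). The call of Ndufv1 was lost without section 2 or 4 (adjusted p = 0.0803 and 0.0883) and with library size alone (0.386), and that of Ndufs3 without section 2 or 4 (adjusted p = 0.0618 and 0.125). Exact copies of 30.84% of the windows of Ndufs3 and 17.81% of those of Ndufb11 lay elsewhere in the genome.

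Of the complex I assembly factors, which are not part of the finished enzyme, 5 of 8 were tested. Ndufaf5 was lower in the BCL than in the GCL (-1.79 ± 0.50, adjusted p = 0.00336), from 4.35 to 9.25 CPM in the BCL sections and from 19.7 to 29.6 CPM in the GCL sections. None of the other 4 was called in the layer comparisons, so that 20% were called higher in the GCL than in the BCL, where all genes gave 20.4%.

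In complex II, all 4 subunits were tested and 1 was called higher in the GCL than in each other layer, or 25%, where all genes gave 32.2% against the ONL and 20.4% against the BCL. Sdhb, the iron-sulphur subunit, measured 25.98, 27.6, 20.5 and 31.3 CPM in the ONL, 27.7, 26.1, 27.7 and 26.8 in the BCL and 34.7, 39.4, 51.4 and 63.4 in the GCL. The GCL sections were the highest in each comparison, at log2 fold changes of -0.82 ± 0.24 for ONL over GCL (adjusted p = 0.00323) and -0.77 ± 0.31 for BCL over GCL (adjusted p = 0.0464). The call against the BCL was lost without section 2, 3 or 4 (adjusted p from 0.0804 to 0.196), under DESeq2 (0.118) and with library size alone (0.131). Over the 4 subunits together, the share of UMIs was 0.0276% in the GCL, 0.0291% in the BCL and 0.0231% in the ONL. The ONL lay below each other layer in 4 of 4 sections, without overlap, and the GCL lay above the BCL in 1 of 4.

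In complex III, 8 nuclear subunits were tested. Of the 4 nuclear genes listed as its core, Cyc1, Uqcrfs1, Uqcrc1 and Uqcrc2, 1 was called in any layer comparison, Uqcrc1. In all, 2 of the 8 were higher in the ONL than in the BCL and 1 higher in the GCL than in the BCL, or 25% and 12.5%, where all genes gave 18.5% and 20.4%. Uqcrc1, a core protein, measured 199, 237, 195 and 153 CPM in the ONL against 106, 135, 134 and 134 in the BCL, a log2 fold change of 0.66 ± 0.17 (adjusted p = 0.00143), which with library size alone was 0.31 (adjusted p = 0.144). Uqcrh, the hinge protein that binds cytochrome c1, was the member with the largest rise from BCL to ONL, on few counts: 28, 20, 12 and 4 UMIs in the ONL sections, 0, 3, 0 and 5 in the BCL sections and 20, 14, 20 and 16 in the GCL sections. Its log2 fold changes were 1.79 ± 0.51 for ONL over BCL (adjusted p = 0.00374) and -1.52 ± 0.51 for BCL over GCL (adjusted p = 0.0153). Without section 1 the first was 1.20 (adjusted p = 0.0896), and without section 1 or 3 the second was -1.16 or -1.06 (adjusted p = 0.0922 and 0.138).

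Complex IV had 13 tested nuclear subunits, many of which come as isoforms made in different tissues. Of the 13, 5 were higher in the GCL than in the ONL and 4 higher in the GCL than in the BCL, or 38.5% and 30.8%, where all genes gave 32.2% and 20.4%. Both counts hold Cox6b2, and without it they were 4 and 3 of 12, or 33.3% and 25%. Cox4i2, the isoform of subunit 4 best known from lung and from low oxygen, held 7, 8, 7 and 5 UMIs in the BCL sections, 9, 4, 11 and 4 in the GCL sections and 0, 2, 1 and 0 in the ONL sections. In CPM this was 22.4 to 34.8 in the BCL, 6.06 to 17.1 in the GCL and at most 3.25 in the ONL, with no overlap between layers. Its log2 fold changes were -4.11 ± 0.64 for ONL over BCL (adjusted p = 4.31e-07), -2.60 ± 0.67 for ONL over GCL (adjusted p = 0.000743) and 1.50 ± 0.42 for BCL over GCL (adjusted p = 0.00347), the one nuclear member called higher in the BCL in each comparison that involves it. With 3 UMIs in all ONL libraries the fold changes against the ONL depend on the prior count of the fit. The common isoform Cox4i1 was higher in the GCL, at 113 to 129 CPM against 73.2 to 113 in the ONL (-0.43 ± 0.16, adjusted p = 0.0162); that call was lost without section 2 or 3 (adjusted p = 0.107 and 0.0615).

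Ratios of isoforms within a library do not depend on scaling. Cox4i2 was 23.3%, 42.1%, 21.9% and 19.2% of the subunit 4 UMIs in the BCL sections, 8.65%, 4.76%, 11.7% and 5.88% in the GCL and 0%, 4.26%, 2.78% and 0% in the ONL. The 3 layers did not overlap, with means of 26.6% ± 10.5, 7.75% ± 3.10 and 1.76% ± 2.12 (SD, n = 4). In a two-sided exact permutation test each of these 3 differences reached p = 0.0286, the smallest that 4 against 4 allows, and 0.0643 after adjustment over the 9 family comparisons with enough counts. Ndufa4l2, the paralogue of the complex IV subunit Ndufa4, held 7, 6, 3 and 6 UMIs in the GCL sections and 0 in all ONL and BCL sections. Per 1000000 UMIs it was at least 6.20-fold higher in the GCL than in the ONL and at least 2.19-fold higher than in the BCL, taking 3 counts over a layer's 4 libraries as the limit for 0. As a share of Ndufa4 and Ndufa4l2 it was 14.7% ± 4.23 in the GCL against 0% in the ONL (exact permutation p = 0.0286, adjusted 0.0643), and it was too low to be tested gene by gene. Among the other families, Atp5g3 was 77.2% ± 8.83 of the c subunit UMIs in the ONL and 87.8% ± 4.49 in the GCL (exact permutation p = 0.114, adjusted 0.171), and Cox6a2, the muscle and heart isoform, was 0% of subunit 6a in the ONL and BCL and 0.357% ± 0.714 in the GCL (1 UMI in all). Ndufa4 itself was higher in the ONL than in the GCL (0.61 ± 0.19, adjusted p = 0.00473; 0.0857 without section 1) and than in the BCL (0.89 ± 0.27, adjusted p = 0.00618; 0.114 with library size alone).

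Cox6b2, the testis-type isoform of subunit 6b, held 14, 5, 9 and 7 UMIs in the GCL, 2, 1, 1 and 2 in the ONL and 0, 0, 3 and 0 in the BCL. It passed the filter on low counts only through its GCL libraries, so that its calls are a description and no support for a difference. Its log2 fold changes were -2.03 ± 0.58 for ONL over GCL (adjusted p = 0.00228) and -1.88 ± 0.76 for BCL over GCL (adjusted p = 0.046), the second lost without section 1, 2 or 4 (adjusted p from 0.103 to 0.276), with the section as a block (0.0516) and with library size alone (0.0752). Its share of subunit 6b was 11.8% ± 3.27 in the GCL and 5.33% ± 4.86 in the ONL, which did not differ beyond their spread (exact permutation p = 0.114). Cox6b1, the common isoform, measured 97.7, 92.4, 101 and 91.5 CPM in the GCL against 36.9, 47.9, 78.6 and 35.8 in the BCL (log2 fold change -0.95 ± 0.24, adjusted p = 0.00095). Its call as higher in the ONL than in the BCL (0.63 ± 0.25, adjusted p = 0.0462) was lost without section 1, 2 or 4 (adjusted p from 0.0833 to 0.264), with the block (0.0541) and with library size alone (0.427).

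Cox7b, encoded on the X chromosome, was lower in both other layers than in the GCL. It measured 39.9, 24.2, 32.7 and 35.2 CPM in the GCL sections, 23.1, 14.6, 23.1 and 13.9 in the ONL sections and 18.5, 8.70, 18.5 and 4.47 in the BCL sections. The log2 fold changes were -0.79 ± 0.29 for ONL over GCL (adjusted p = 0.015) and -1.40 ± 0.41 for BCL over GCL (adjusted p = 0.00552), and without section 4 both adjusted p-values rose, to 0.0549 and 0.0544. Cox6a1 was likewise called higher in the GCL in both comparisons (-0.41 ± 0.16, adjusted p = 0.0259, and -0.59 ± 0.21, adjusted p = 0.0225), on calls lost without section 2, 3 or 4 and without section 1 or 2 respectively (adjusted p from 0.0758 to 0.127 and from 0.0804 to 0.0854), and the second also with library size alone (0.114).

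Complex V had 15 tested subunits. Atp5b, the catalytic beta subunit, was the nuclear member with the highest level per length in the ONL, at 179 ± 23.3 RPKM (SD, n = 4), against 123 ± 8.86 in the BCL and 129.7 ± 8.34 in the GCL. It measured 810, 836, 771 and 615 CPM in the ONL sections, 498, 527, 569 and 483 in the BCL sections and 507, 550, 549 and 593 in the GCL sections. Every ONL section lay above every other, at log2 fold changes of 0.56 ± 0.12 over the BCL (adjusted p = 0.000117) and 0.48 ± 0.11 over the GCL (adjusted p = 0.00011), although with library size alone the first was 0.22 (adjusted p = 0.125). Atp5a1, the alpha subunit, was also lower in the BCL, at log2 fold changes of 0.37 for ONL over BCL (adjusted p = 0.0147) and -0.31 for BCL over GCL (adjusted p = 0.04), with no overlap between sections in either. The first call of Atp5a1 was lost without section 2 (adjusted p = 0.163) and the second without any 1 section (adjusted p from 0.0507 to 0.110), and both were lost under DESeq2 (0.0777 and 0.0719) and with library size alone (0.867 and 0.376). Atp5g3, which encodes the c subunit of the rotor, was lower in the BCL than in the GCL (-0.84 ± 0.31, adjusted p = 0.0288), a call lost without section 1, 2 or 4 (adjusted p from 0.0703 to 0.173) and with library size alone (0.0891). In the GCL the highest level per length was that of Cox6a1, at 150.3 ± 8.81 RPKM, followed by Atp5a1 at 138 ± 6.68, Cox6b1 at 135 ± 6.53 and Atp5b at 129.7 ± 8.34, and neighbours after the first lay within their spread.

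**Figure D5:**
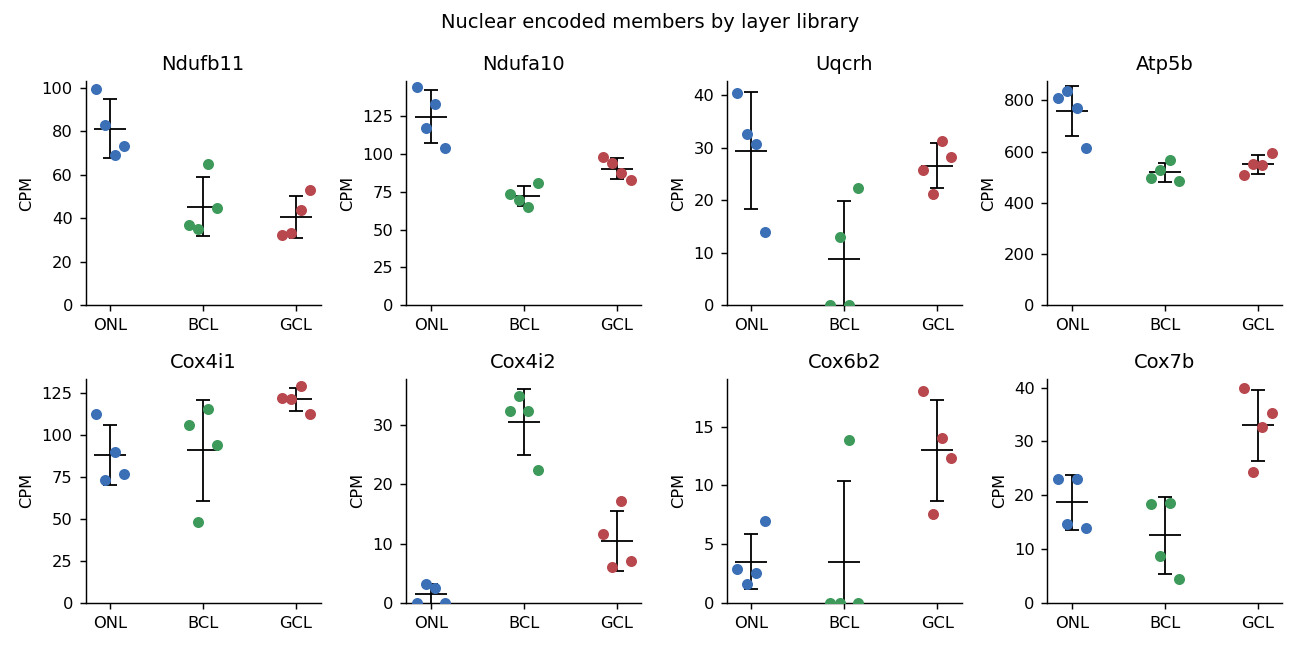
Level in CPM (TMM-scaled) of 8 nuclear members by layer, with sections as points and mean ± SD as bars (n = 4). Ndufb11, Ndufa10 and Atp5b are highest in the ONL, Cox4i2 in the BCL at 22.4 to 34.8 CPM, and Cox6b2 and Cox7b in the GCL.

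The same search for copies covered the nuclear members. Of 93 nuclear members with 1 gene identifier, 39 had no copied 50-base window and 7, Ndufb4c among them, had more than 50% of their windows copied. The 7 had a median level over the layers of 0.916 RPKM, against 17.9 RPKM for the 39, 16.03 for the 30 members with up to 10% copied and 5.66 for the 17 in between. Cox7c, with 71.49% copied, held 2 UMIs over 12 libraries and Ndufs5, with 75.45%, held 1; both were named after their values were seen. Whether lost reads set these levels was not tested. 

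Promoters of the nuclear members were read from RefSeq (GRCm38.p6), 250 bases before to 50 after each start, for 75 of 94 nuclear members. NRF1 and the ETS factor GABP are known activators of respiratory chain genes, and YY1 is another factor tied to them. The NRF1 core GCATGCGC was found, on either strand, in 15% of 80 member promoters and in 2.71% of all 32851 promoters. The ETS core CCGGAAG was in 23.75% and 8.86%, and the YY1 core AAGATGGC in 13.75% and 2.75%. The median number of CG dinucleotides was 20 in the member promoters and 7 in all promoters, 2 of the 3 cores hold CG themselves, and the shares are a description only. The 100 bases before the start are shown for 4 members, Uqcrh, Cox6b1 and Atp5b as genes called between layers and Cox6b2 as the isoform of Cox6b1, 2 with an ETS core (capitals) and 2 with none of the 3 cores there: Uqcrh at chr4:116075071-116075170 (reverse strand), Cox6b1 at chr7:30626115-30626214 (reverse), Cox6b2 at chr7:4753095-4753194 (reverse) and Atp5b at chr10:128083207-128083306 (forward). The same stretches of Ndufb11, Ndufa10 and Cox7b, also called between layers, held none of the 3 cores and are not shown.
Uqcrh: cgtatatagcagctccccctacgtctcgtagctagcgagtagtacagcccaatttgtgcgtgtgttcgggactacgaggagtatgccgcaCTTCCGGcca
Cox6b1: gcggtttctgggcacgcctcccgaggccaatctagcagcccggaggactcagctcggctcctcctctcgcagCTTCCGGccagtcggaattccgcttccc
Cox6b2: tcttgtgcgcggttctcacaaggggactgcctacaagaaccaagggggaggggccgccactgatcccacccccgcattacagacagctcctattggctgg
Atp5b: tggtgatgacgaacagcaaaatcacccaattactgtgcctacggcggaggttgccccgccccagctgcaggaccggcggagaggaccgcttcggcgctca

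Genes around the chain were taken from lists, and their counts are read against the 29.3% of all genes called higher in the ONL and 32.2% called higher in the GCL for ONL against GCL, and the 20.4% called higher in the GCL than in the BCL. Of 12 tested genes of the citric acid cycle, 6 were higher in the GCL than in the ONL and 0 higher in the ONL, and 7 were higher in the GCL than in the BCL. Ogdh, of the oxoglutarate dehydrogenase complex, stood at 703 to 783 CPM in the GCL, 407 to 509 in the BCL and 368 to 415 in the ONL, at -0.90 ± 0.11 for ONL over GCL (adjusted p = 1.4e-10). Of 14 tested genes that maintain or transcribe mitochondrial DNA or drive the nuclear programme, 6 were higher in the ONL than in the GCL and 1 higher in the GCL. Ppargc1b, a coactivator of that programme, measured 240 to 369 CPM in the ONL and 52.8 to 68.1 in the GCL, a log2 fold change of 2.36 ± 0.15 (adjusted p = 1.79e-20), and its relative Ppargc1a was higher in the ONL as well (1.05 ± 0.16, adjusted p = 6.01e-08). Of 30 tested assembly factors outside the Nduf symbols, 5 were higher in the ONL than in the GCL and 3 lower, led by Uqcc3, a complex III assembly factor (3.17 ± 0.48, adjusted p = 9.34e-08). Of 10 tested genes of coenzyme Q synthesis, 1 was called, Coq8b, higher in the ONL than in the GCL (1.25 ± 0.37, adjusted p = 0.00336). Of 8 tested genes for cytochrome c and adenine nucleotide exchange, 2 were higher in the ONL than in the GCL and 3 lower. Of 8 tested mitochondrial tRNAs, 2 were higher in the ONL than in the GCL and 0 lower.

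In the amacrine cells, 7 of 8 mitochondrial and 30 of 87 nuclear members passed the filter, among 6021 genes tested. Mitochondrial members made up 6.18%, 4.99%, 5.09%, 5.78% and 4.61% of UMIs in TH+ libraries and 5.41%, 4.33%, 4.40%, 4.71% and 4.44% in the TH- libraries of the same sections. The groups overlapped, at 5.33% ± 0.633 and 4.66% ± 0.444 (SD, n = 5), but TH+ was the higher in 5 of 5 sections. Nuclear members took 0.324% ± 0.0549 in TH+ and 0.343% ± 0.0620 in TH- libraries, with TH+ higher in 2 of 5. Rod markers were also higher on average in the TH+ libraries, at 1.30% to 3.37% against 0.743% to 1.98%. Müller glia markers were lower there on average, at 0.280% to 0.414% against 0.391% to 0.632%, as were bipolar markers, at 0.0429% to 0.142% against 0.0698% to 0.234%, and general amacrine markers, at 0.198% to 0.304% against 0.241% to 0.403%, and all 4 ranges overlapped. Of the other lists apart from the dopaminergic one, none passed 0.0692% in any library. The part of these cell types in the mitochondrial and nuclear shares was not tested.

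No member was called between TH+ and TH- cells without a section term: 0 of 7 mitochondrial and 0 of 30 nuclear genes by edgeR, where 0.747% of all genes were called higher in TH+ and 0.083% higher in TH-, and 0 by DESeq2. At an unadjusted p under 0.05 there was 1 of each kind, mt-Nd6 and Ndufa10. mt-Nd6 stood at 5136, 4004, 3234, 4285 and 2673 CPM in TH+ and at 3442, 2878, 2960, 2943 and 2633 CPM in TH- libraries, higher in TH+ in 5 of 5 sections (0.39 ± 0.16, adjusted p = 0.388). Because both groups were barcoded in each section, the fit with the section as a block compares them within sections. With this block, 3 of 7 mitochondrial genes, all of complex I, were called higher in TH+ cells, where all genes gave 1.59%: mt-Nd6 (0.38, adjusted p = 0.00172), mt-Nd4 (0.29, adjusted p = 0.0186) and mt-Nd2 (0.28, adjusted p = 0.0313). The block raised the calls over all genes from 50 to 148.

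The values of the nuclear genes in these cells rest on few counts. Ndufa10 measured 0, 37.8, 76.4, 23.8 and 34.3 CPM in TH+ and 58.5, 44.0, 129, 76.6 and 84.9 CPM in TH- libraries, lower in TH+ in 5 of 5 sections (-1.14 ± 0.53, adjusted p = 0.499). Ndufs1, the largest core subunit of complex I, was lower in TH+ in 5 of 5 sections with no overlap, at 23.8 to 45.7 CPM against 48.5 to 101 CPM (-0.91 ± 0.51, adjusted p = 0.629). Ndufa9, the nuclear gene of smallest p in the TH+ direction, had 0.81 ± 0.54 (adjusted p = 0.734), and Atp5a1, Ndufv2 and Ndufa8 followed in the TH- direction, with log2 fold changes of -0.30, -0.62 and -0.69. Outside the chain, 1 of 6 tested genes for cytochrome c and adenine nucleotide exchange was called, where 0.747% of all genes were called higher in TH+. It was Ucp2, an inner membrane carrier, higher in TH+ cells (1.78 ± 0.46, adjusted p = 0.0431).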

How the data were processed

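UMI counts per gene were used as deposited. Per the study's methods and the submitters' processing notes, the authors aligned reads to mm39 with STAR 2.7.9a, dropped multiply aligned reads, counted exonic reads by featureCounts at default settings and removed duplicates per gene with UMI-tools 1.1.1, leaving out mt-Rnr1; SAMtools 1.9 is also named. The deposited counts are whole numbers of distinct UMIs, not normalized. Gene lengths came from the deposited mouse tables, and RPKM was computed here from CPM and those lengths.

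Libraries were grouped by section and barcode (4 sections with 3 barcodes; 5 with 2). Genes were kept with edgeR's expression filter (minimum count 3, minimum total 10) and tested with edgeR 4.0.16 in R 4.3.3 (TMM, quasi-likelihood F-test, Benjamini-Hochberg over all genes, threshold 0.05) within each table, a procedure tested on simulated data. Of simulated 2-fold changes, 37.5% were recovered for ONL against BCL, 57.0% for ONL against GCL and 38.4% for BCL against GCL. For TH+ against TH- 29.8% were recovered. Of 4-fold changes, 75.3% to 88.5% were recovered over the comparisons. SE is the log2 fold change divided by the square root of F. Alternatives were DESeq2 1.42.0, other size factors, filters, mitochondrial genes left out, the section as a block and each section left out. Isoform shares (at least 10 UMIs of a family in every library) were compared by exact permutation. Copies were exact 50-base matches in GRCm39, the assembly of mm39. Library totals limit precision, and shares cover counting error only through the spread of sections. Libraries with the same number come from 1 section, so the pairing is by design; residuals of same-section libraries correlated at 0.0116 to 0.0493 in the layers and 0.0287 to 0.257 in the amacrine cells.

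Named genes were the mitochondrial subunits; called genes of the core and isoform lists; per layer comparison, complex and direction the called gene of smallest adjusted p that moved alike in all sections; and for TH+ the 5 genes per direction of smallest p. A gene named in 1 comparison may be given in another. Members and lists were chosen with earlier results of these data known. Human tables and the deeper run of the mixed culture were not used here. 1 result is not reported here.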

Additional observations from a re-analysis of the deposited data

Results flagged for a closer look

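In 8 of 111 groups of 4 or 5 sections examined, 1 section stood apart from the rest of its group by Dixon's test; chance gives about 1 in 20. The mitochondrial share of ONL section 1 was 3.606%, with the next at 3.037%, and mt-Co1 in the same library was at 7948 CPM with the next at 6801 CPM. The nuclear share of BCL section 3 was 0.4111%, with the next at 0.3661%. Cox6b2 was at 13.87 CPM in BCL section 3 and at 0 in the other BCL sections. Uqcrc1 was at 202.4 CPM in GCL section 4, with the next at 158.2, and at 106.1 CPM in BCL section 1, with the next at 134.1. mt-Nd2 was at 5503 CPM in GCL section 4, with the next at 5782. Ndufs1 was at 100.5 CPM in TH- section 2, with the next at 61.77.

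Outside the members, the annotated pseudogenes over the chromosome 1 copy of mitochondrial DNA held 128 UMIs over the 12 layer libraries, above the 3 counts that a count of 0 allows. Most UMIs were those of Gm28438 (35), Gm28661 (28), Gm10925 (26) and Gm29216 (23). From which genome these reads came was not tested.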

How the results depend on the processing

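The 7 mitochondrial genes remained called higher in the GCL than in the ONL and the BCL under every alternative that tested them. For ONL against BCL, mitochondrial genes called higher in the BCL numbered 0 as reported, 5 by DESeq2, 4 with RLE factors, 7 with library size only, 1 with edgeR's default filter and 1 with the replicate block, and 0 to 4 without 1 section each (all genes 18.2% as reported, 18.4%, 19.7%, 25.5%, 22.2% and 18.1%, and 14.3% to 17.7%). For TH+ over TH- the block gave 3 against 0, and leaving out a section 0. Nuclear genes called higher in the ONL than in the BCL were 6 by DESeq2, 6 with RLE factors, 1 with library size only (and 2 higher in the BCL) and 6 to 11 without 1 section, against 10 (all genes 12.9%, 15.7%, 10.6% and 14.9% to 16.7%, against 18.5%). Nuclear genes higher in the ONL than in the GCL were 6 by DESeq2 and 6 with library size only (20 higher in the GCL), and 6 to 10 without 1 section, against 10 (all genes 24.9%, 25.2% and 25.6% to 27.1%, against 29.3%). Nuclear genes higher in the GCL than in the BCL were 7 by DESeq2, 8 with library size only (3 higher in the BCL), 9 with the default filter and 6 to 12 without 1 section (1 to 2 higher in the BCL), against 14 (all genes 16.4%, 16.5%, 24% and 17.1% to 18.5%, against 20.4%). The calls over all genes thus moved too, and the cause was not tested. Over nuclear genes alone as denominator, the nuclear share became 0.3973% (ONL), 0.4000% (BCL) and 0.444% (GCL). Over all UMIs, the GCL share without the assembly factors was 0.394%. Low values changed sign with no filter: mt-Nd6 for ONL over BCL to 0.0085 (and to 0.0788 and 0.0647 without 1 section, range -0.1711 to 0.0788), and mt-Co1 and mt-Cytb for TH+ over TH- to -0.0964 and -0.0100. No isoform difference changed sign when 1 section was left out, and sign flips within sections, whose smallest p is 0.125, cannot reach the threshold. Depth limits the nuclear genes of the amacrine cells most, where 57 of 87 did not pass the filter.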
